A study of Arabidopsis thaliana with 9 samples.

Results

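The set described here holds 171 of the 22746 probe sets of the Affymetrix ATH1 array that are not controls. Its members were chosen by their measured signal: all 6 arrays of AtSPP transgenic seedlings lay below all 3 Col-0 arrays, and the mean of each transgenic kind was at least 0.0003 below the Col-0 mean. Those conditions were met by 178 probe sets, and 7 of them belonged to 12 loci that the rule leaves out, which gave 171. Of these members 58 have a single gene in the annotation of the array, 1 has several genes, and 112 are absent from that annotation and are known here by their probe set only. A single gene is thus given for 33.9% of the members, against 59.4% of all probe sets.

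AtSPP is the signal peptide peptidase of Arabidopsis thaliana, an aspartic protease of the endoplasmic reticulum membrane that cuts signal peptides within the membrane. The AtSPP-overexpressed lines carry the full-length gene behind the CaMV 35S promoter, which is active in nearly all plant cells, and the labels name the binary vectors pZH2B, pZH3B and pZH4B for the 3 samples, whereas the methods name pZH2B alone. The AtSPP knockdown lines carry a sense and antisense construct against AtSPP, with a fragment of 600 bp in sample 1 and of 400 bp in samples 2 and 3. Col-0 is the untransformed parental strain. All groups were grown for 7 days on MS medium with 0.8% agar. The methods state a reduced strength of MS medium for Col-0 and the AtSPP-overexpressed lines. RNA was taken from 20 whole plants pooled per sample, and each sample was hybridized to 1 array, with 3 arrays per group. Nothing states that the Col-0 samples were more than separate pools. It is not stated per sample whether the transgenic samples came from separate lines. The spread of the knockdown group also mixes the 600 bp and 400 bp fragments. A p-value therefore reflects only how far these samples scatter, part of which can be technical. RNA of whole plants cannot tell fewer cells of a type from less RNA per cell.

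The genes with a known role among the members come from several branches of plant metabolism and regulation. Flavonols are phenolic compounds that plants store as glycosides, and glucosinolates are sulfur-containing defence compounds of the cabbage family. UDP-glycosyltransferases complete both by adding a sugar to the precursor. The set also holds inhibitors of the cryptochromes, which are blue light receptors, and FCS-like zinc finger proteins, which bind the energy-sensing kinase SnRK1. Where the gene table gives a locus code and no symbol, the role stated here is general knowledge of that locus.

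The authors normalized the signals with the distribution free weighted (DFW) algorithm, which moves arrays together wherever they differ little. A difference in DFW units is therefore not a log2 fold change, and its size cannot be read across genes as an amount of RNA. The array medians over all probe sets were 6.30259, 6.30257 and 6.30234 in AtSPP-overexpressed lines and 6.30286, 6.30290 and 6.30291 in knockdown lines, against 6.30234 on each Col-0 array. The knockdown medians thus lay above the Col-0 medians by more than the limit of 0.0003. With each array centred on its median, 400 probe sets met the rule in place of 171, and 154 in place of 36 members were called between the transgenic kinds. AtSPP itself had values of 8.187, 8.226 and 8.157 in AtSPP-overexpressed lines and of 7.923, 7.936 and 7.918 in knockdown lines, against 7.961, 7.979 and 7.980 in Col-0. The 3 groups did not overlap. AtSPP was 0.217 above Col-0 in AtSPP-overexpressed lines (limma adjusted p = 0.0140), while the knockdown difference of -0.0479 did not pass (limma adjusted p = 0.125).

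Members lay below Col-0 by a median of 8.5e-04 in AtSPP-overexpressed lines and by 0.00140 in knockdown lines. The differences from Col-0 reached from -0.126 to -3.0e-04 in AtSPP-overexpressed lines and from -0.174 to -3.4e-04 in knockdown lines. Over all probe sets the median differences were 1.3e-07 and -3.1e-07. Since these contrasts chose the members, they are a description and carry no test. Both contrasts use the same 3 Col-0 arrays, so they are not independent of each other. Of all probe sets 4.65% had the 6 transgenic arrays below Col-0 and 5.35% had them above. limma called 18 members lower in AtSPP-overexpressed lines and 155 lower in knockdown lines, where 0.246% and 6.94% of all probe sets were called lower, and 0.299% and 6.56% higher. Nothing is read from these counts because the rule used the same contrasts. The gap between the highest transgenic array and the lowest Col-0 array was 2.7e-04 at the median, from 5.1e-06 to 0.0793.

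The limit of 0.0003 fell in a dense part of the distribution. The members just inside it were AT5G20740, with differences of -3.0e-04 in AtSPP-overexpressed lines and -3.9e-04 in knockdown lines, AT3G15760 with -3.1e-04 and -3.4e-04, and scpl35 with -3.2e-04 and -0.00127. Just outside it were AT2G43550 with -2.7e-04 and -0.0015, AT3G15460 with -2.7e-04 and -8.8e-04, and AT2G32220 with -2.6e-04 and -5.2e-04.

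Genes of flavonol glycoside formation were among the members. UGT78D1, which adds rhamnose to flavonols at the 3-hydroxyl group, had signals of 7.08540, 7.08430 and 7.08565 in AtSPP-overexpressed lines and 7.08336, 7.08283 and 7.08284 in knockdown lines, against 7.08765, 7.08736 and 7.08699 in Col-0. The groups were separate, with the knockdown arrays lowest, and the signal was 0.00210 ± 3.8e-04 (SE, n = 3 per group) higher in AtSPP-overexpressed lines than in knockdown lines (limma adjusted p = 0.0352). UGT78D2, which adds glucose to flavonoids at the same position, had 6.94789, 6.94685 and 6.94745 in AtSPP-overexpressed lines and 6.94656, 6.94613 and 6.94616 in knockdown lines, against 6.94916, 6.94824 and 6.94790 in Col-0. Its highest AtSPP-overexpressed array nearly reached the lowest Col-0 array, and the difference of 0.00111 between the transgenic kinds did not pass (limma adjusted p = 0.187). CHIL, a chalcone isomerase-like protein that raises the yield of the first step of flavonoid synthesis, had 6.99919, 6.99889 and 6.99883 in AtSPP-overexpressed lines and 6.99820, 6.99790 and 6.99815 in knockdown lines, against 6.99957, 6.99925 and 6.99921 in Col-0. CHIL was 8.9e-04 higher in AtSPP-overexpressed lines than in knockdown lines (limma adjusted p = 0.0260). Of the 20 genes on the list of phenylpropanoid and flavonoid synthesis 4 were measured by a probe set paired with 1 gene. The 2 UGT78D genes are members, another met the limits but is one of the loci left out, and the dihydroflavonol reductase gene DFR differed from Col-0 by 7.9e-05 in AtSPP-overexpressed lines and by -8.9e-04 in knockdown lines. Of the 4, 2 were called higher in AtSPP-overexpressed than in knockdown lines and none lower, against 2.26% and 2.07% of all probe sets. These were UGT78D1 and the locus left out, both of which met the limits, while UGT78D2 and DFR (limma adjusted p = 0.0628) did not pass.

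Further UDP-glycosyltransferases were low on the same arrays. AT2G31790, the glucosinolate glucosyltransferase UGT74C1, had 7.85995, 7.85870 and 7.85895 in AtSPP-overexpressed lines and 7.85750, 7.85806 and 7.85703 in knockdown lines, against 7.86055, 7.86075 and 7.86080 in Col-0. Its difference between the transgenic kinds was 0.00167 ± 3.8e-04 (SE, n = 3 per group) and did not pass (limma adjusted p = 0.0649). UGT71B1 had 6.79460, 6.79311 and 6.79363 in AtSPP-overexpressed lines and 6.79190, 6.79118 and 6.79078 in knockdown lines, against 6.79542, 6.79533 and 6.79482 in Col-0, and its AtSPP-overexpressed mean exceeded its knockdown mean by 0.00250 (limma adjusted p = 0.0345). UGT76E11, chosen after its values were seen, lay 3.8e-04 below Col-0 in AtSPP-overexpressed lines and 9.2e-04 below in knockdown lines. The gene table names 75 loci as UDP-glycosyltransferases by symbol or synonym, which leaves out AT2G31790 and any other without such a name. Of the 75, 51 were measured and 4 of these are members. In 9 of the 51 (17.6%) all 6 transgenic arrays lay below Col-0, against 4.65% of all probe sets, and in 3 above. The median difference of the 51 was -2.0e-06 in AtSPP-overexpressed lines and -1.1e-07 in knockdown lines, with members and left-out loci included. limma called 12 of the 51 (23.5%) lower and 1 higher in knockdown lines than in Col-0, against 6.94% and 6.56% of all probe sets, and none in AtSPP-overexpressed lines. Of the 9, 5 met the limits of the rule. The counts of 9 and 12 use the contrasts with Col-0 that chose the members and include members, so nothing is read from them. Between the transgenic kinds 3 of the 51 were called higher in AtSPP-overexpressed lines and none lower, against 2.26% and 2.07% of all probe sets. On the list of glucosinolate synthesis 6 of 32 genes were measured and AT2G31790 is its member. Of the 6, 5 were called lower in knockdown lines than in Col-0, against 6.94% of all probe sets. None was called lower in AtSPP-overexpressed lines, against 0.246%. The count of 5 includes the member and loci left out by the rule and uses 1 of its contrasts, so nothing is read from it. The others included GSTU20, a glutathione transferase of glucosinolate synthesis, with differences from Col-0 of -1.2e-04 in AtSPP-overexpressed and -4.2e-04 in knockdown lines, and the glucosinolate transporter gene GTR2 with -2.1e-05 and -4.2e-05.

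**Figure D1:**
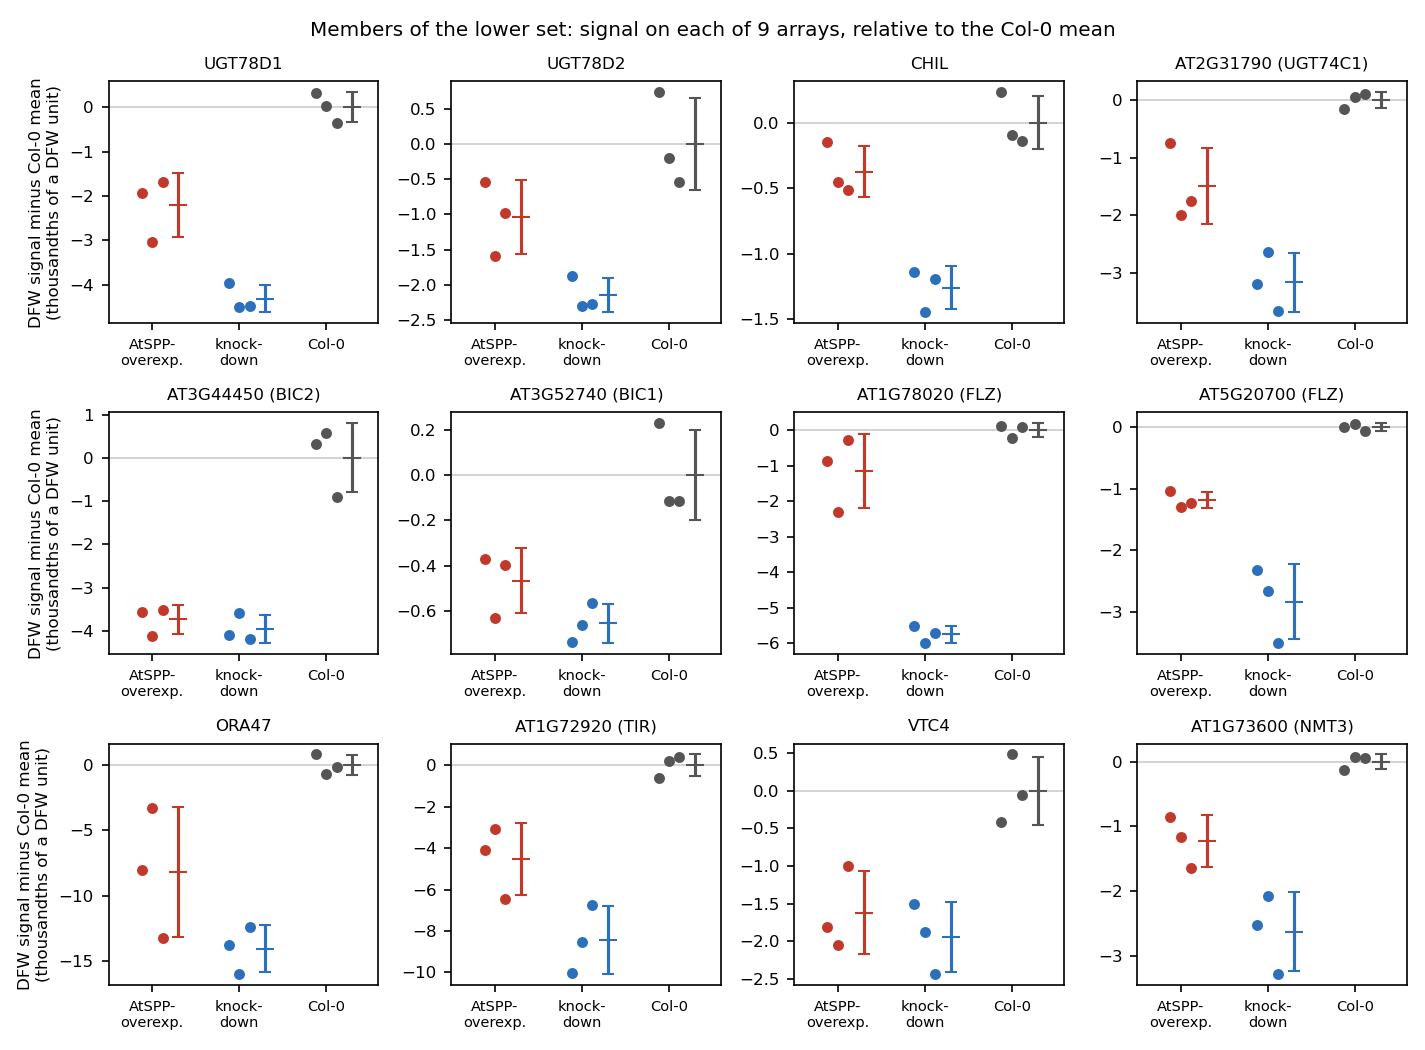
DFW signal of 12 members on each array, as the difference from the Col-0 mean in thousandths of a DFW unit (points, arrays; bars, mean ± SD, n = 3), for AtSPP-overexpressed, knockdown and Col-0 samples. The knockdown arrays lie lowest for UGT78D1, UGT78D2, CHIL, AT2G31790, both FLZ genes, AT1G72920 and AT1G73600. The transgenic kinds overlap for AT3G44450, AT3G52740, ORA47 and VTC4.

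Regulatory and signalling genes gave the largest differences from Col-0 among members with a gene. ORA47, an AP2/ERF transcription factor that induces jasmonate synthesis genes, had 6.17567, 6.18041 and 6.17053 in AtSPP-overexpressed lines and 6.16995, 6.16774 and 6.17132 in knockdown lines, against 6.18453, 6.18307 and 6.18357 in Col-0. Its mean differed from Col-0 by -0.00819 in AtSPP-overexpressed lines and by -0.0141 in knockdown lines. The AtSPP-overexpressed arrays were spread widely (SD 0.00494, n = 3, against 7.4e-04 in Col-0), and ORA47 did not differ between the transgenic kinds beyond this spread (limma adjusted p = 0.246). AT1G72920, a protein with the TIR domain of plant immune receptors, had 6.6238, 6.6248 and 6.6214 in AtSPP-overexpressed lines and 6.6178, 6.6193 and 6.6211 in knockdown lines, against 6.6273, 6.6281 and 6.6282 in Col-0. The difference of 0.00390 between the kinds did not pass (limma adjusted p = 0.115).

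Both genes for the cryptochrome inhibitors BIC1 and BIC2 were members. AT3G44450, which encodes BIC2, had 6.05523, 6.05466 and 6.05525 in AtSPP-overexpressed lines and 6.05468, 6.05519 and 6.05459 in knockdown lines, against 6.05910, 6.05936 and 6.05787 in Col-0. The 6 transgenic arrays lay within a narrow band, and the differences from Col-0 were nearly equal, at -0.00373 in AtSPP-overexpressed lines and -0.00396 in knockdown lines. AT3G52740, which encodes BIC1 and was named after its values were seen, had 6.43661, 6.43635 and 6.43659 in AtSPP-overexpressed lines and 6.43625, 6.43632 and 6.43642 in knockdown lines, against 6.43721, 6.43687 and 6.43687 in Col-0. Neither gene differed between the transgenic kinds beyond the spread (difference 2.2e-04 ± 4.1e-04 for AT3G44450 and 1.9e-04 ± 1.2e-04 for AT3G52740, SE, n = 3 per group).

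Of the FCS-like zinc finger (FLZ) genes, a family grouped after the values were seen, 10 of 13 were measured and 3 are members. AT1G78020 had 7.99090, 7.98947 and 7.99149 in AtSPP-overexpressed lines and 7.98624, 7.98576 and 7.98604 in knockdown lines, against 7.99188, 7.99154 and 7.99186 in Col-0. The third AtSPP-overexpressed array almost touched the Col-0 range, while the knockdown arrays formed a separate low group. The decrease in knockdown lines was 5.03 times that in AtSPP-overexpressed lines, the highest ratio of the 171 members, and AT1G78020 was 0.00461 ± 4.9e-04 (SE, n = 3 per group) higher in AtSPP-overexpressed than in knockdown lines (limma adjusted p = 0.00820). AT5G20700 had 8.37030, 8.37005 and 8.37012 in AtSPP-overexpressed lines and 8.36902, 8.36868 and 8.36784 in knockdown lines, against 8.37135, 8.37140 and 8.37128 in Col-0, and its AtSPP-overexpressed mean exceeded its knockdown mean by 0.00164 (limma adjusted p = 0.0289). AT2G44670 was 3.4e-04 below Col-0 in AtSPP-overexpressed lines and 4.0e-04 below in knockdown lines, and the transgenic kinds overlapped. Of the 7 other measured FLZ genes, AT3G22550 was also higher in AtSPP-overexpressed than in knockdown lines, by 1.4e-04 (limma adjusted p = 0.0397), and the median of the family was -2.6e-05 in AtSPP-overexpressed and -1.0e-04 in knockdown lines.

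The members with a CCT motif, found in plant transcriptional regulators, were AT1G07050 and AT5G53420. AT1G07050 had 7.56191, 7.56193 and 7.56197 in AtSPP-overexpressed lines and 7.56158, 7.56144 and 7.56154 in knockdown lines, against 7.56229, 7.56233 and 7.56216 in Col-0. The AtSPP-overexpressed arrays differed little among themselves and stood between the other groups, 4.2e-04 above the knockdown arrays (limma adjusted p = 0.0132). AT5G53420, named after its values were seen, lay 3.5e-04 below Col-0 in AtSPP-overexpressed and 6.0e-04 below in knockdown lines.

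Some members act on cell wall polymers or lipids, and they were gathered from the named genes, not from a list. GH9C2, an endoglucanase of glycoside hydrolase family 9, had 7.54796, 7.54856 and 7.54837 in AtSPP-overexpressed lines and 7.54685, 7.54712 and 7.54712 in knockdown lines, against 7.54934, 7.55006 and 7.54969 in Col-0. The groups were separate, and GH9C2 was 0.00126 higher in AtSPP-overexpressed than in knockdown lines (limma adjusted p = 0.0326). The pectin lyase-like gene AT5G63180 was 0.00154 higher in AtSPP-overexpressed than in knockdown lines (limma adjusted p = 0.0482), whereas for AT3G15720, of the same superfamily, the difference of 6.1e-04 did not pass (limma adjusted p = 0.267). The GDSL lipase gene AT1G28600 was 5.6e-04 higher in AtSPP-overexpressed lines than in knockdown lines (limma adjusted p = 0.0478). AT1G73600, a phosphoethanolamine N-methyltransferase of phosphocholine synthesis, had 8.41424, 8.41392 and 8.41345 in AtSPP-overexpressed lines and 8.41258, 8.41301 and 8.41181 in knockdown lines, against 8.41496, 8.41517 and 8.41515 in Col-0, with a difference of 0.00140 between the kinds (limma adjusted p = 0.0700). AT2G16005, an MD-2-related lipid recognition protein also called ROSY1, had 7.01045, 7.01160 and 7.01247 in AtSPP-overexpressed lines and 7.01180, 7.01228 and 7.00946 in knockdown lines, against 7.01254, 7.01270 and 7.01281 in Col-0. Its lowest arrays came from both kinds, the highest transgenic array was within 6.5e-05 of the lowest Col-0 array, and the kinds did not differ beyond the spread (limma adjusted p = 0.899). None of the 11 measured genes of 28 on the list of expansins and xyloglucan endotransglucosylases, enzymes and proteins of wall loosening, is a member, although EXPA8, one of the loci left out, met the limits. More genes of that list went the other way. All 6 transgenic arrays lay above Col-0 in 4 of the 11 and below in 1, against 5.35% and 4.65% of all probe sets. In knockdown lines limma called 5 of the 11 higher than Col-0 and 2 lower, against 6.56% and 6.94% of all probe sets. Wall genes as a group were thus not lower.

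Among enzymes of other pathways, VTC4, the L-galactose-1-phosphate phosphatase of ascorbate synthesis, had 7.89183, 7.89158 and 7.89263 in AtSPP-overexpressed lines and 7.89212, 7.89176 and 7.89120 in knockdown lines, against 7.89321, 7.89411 and 7.89357 in Col-0. The transgenic kinds overlapped, with differences from Col-0 of -0.00162 and -0.00194. AT2G23910, a Rossmann-fold protein related to cinnamoyl-CoA reductase, had 6.78940, 6.78901 and 6.78926 in AtSPP-overexpressed lines and 6.78756, 6.78729 and 6.78721 in knockdown lines, against 6.79033, 6.79021 and 6.79024 in Col-0. Its 3 groups were far apart relative to their spread, and it was 0.00187 ± 1.2e-04 (SE, n = 3 per group) higher in AtSPP-overexpressed than in knockdown lines (limma adjusted p = 0.00203). AT3G02910, a protein of the gamma-glutamylcyclotransferase-like family, had 8.04889, 8.04780 and 8.04827 in AtSPP-overexpressed lines and 8.04627, 8.04610 and 8.04613 in knockdown lines, against 8.04969, 8.04939 and 8.04944 in Col-0, and its AtSPP-overexpressed mean exceeded its knockdown mean by 0.00216 (limma adjusted p = 0.0105). The serine carboxypeptidase-like gene scpl35 had 8.44437, 8.44431 and 8.44450 in AtSPP-overexpressed lines and 8.44324, 8.44358 and 8.44349 in knockdown lines, against 8.44457, 8.44487 and 8.44468 in Col-0. It lay close to Col-0 in the AtSPP-overexpressed lines and was 9.5e-04 higher there than in knockdown lines (limma adjusted p = 0.0102). The acyltransferase gene AT5G67150 differed by 0.00116 between the kinds and did not pass (limma adjusted p = 0.0600).

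Of the members that act in translation or on RNA, AT5G12110, a beta-type subunit of the translation elongation factor eEF1B, was 7.4e-04 below Col-0 in AtSPP-overexpressed and 0.00176 below in knockdown lines, and 0.00102 higher in AtSPP-overexpressed than in knockdown lines (limma adjusted p = 0.0289). The pentatricopeptide repeat proteins, which bind organellar RNA, were represented by AT5G02830, AT1G01970 and PPR596, the last 2 of them named after their values were seen. AT5G02830 was 8.5e-04 higher in AtSPP-overexpressed than in knockdown lines (limma adjusted p = 0.0398), and the differences of 3.9e-04 for AT1G01970 and 2.7e-04 for PPR596 did not pass. AT3G57490, a ribosomal protein of the S2 family, and AT3G05060, a nucleolar protein related to NOP56 and NOP58, were also named after their values were seen. They lay 6.2e-04 and 3.2e-04 below Col-0 in AtSPP-overexpressed lines and 0.00108 and 5.8e-04 below in knockdown lines. The MATE transporter gene AT5G17700 lay 7.2e-04 below Col-0 in AtSPP-overexpressed lines and 0.00168 below in knockdown lines, with limma adjusted p = 0.0628 between the kinds.

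In 12 members the AtSPP-overexpressed mean was the lower one, and AT2G25510 is the only one of these with a gene. It had 9.51761, 9.51826 and 9.51861 in AtSPP-overexpressed lines and 9.51813, 9.51943 and 9.51886 in knockdown lines, against 9.52000, 9.51996 and 9.51964 in Col-0, and its ratio of 0.619 between the knockdown and the AtSPP-overexpressed decrease was the lowest of the set. The difference of -6.5e-04 between the kinds did not pass (limma adjusted p = 0.427). The decreases of AT5G02480, which has the fold of small heat shock proteins, AT4G23680, a major latex protein-like gene, AT5G01790 and SAT32 differed between the kinds by 2.3e-04, 1.4e-04, 2.1e-04 and 2.3e-04, and none passed. The other named members, AT5G55620, AT4G34630, AT3G23170 and AT3G61770, were each lower in knockdown than in AtSPP-overexpressed lines by 5.1e-04 to 0.00124, and none passed.

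The members farthest from Col-0 have no gene in the annotation used here. The 8 members at least 0.01 below Col-0 in both kinds were all unlisted, and of the 70 members at least 0.001 below in both, 21 are paired with 1 gene. The probe set 249752_at had 6.144, 6.071 and 6.102 in AtSPP-overexpressed lines and 6.064, 6.053 and 6.056 in knockdown lines, against 6.236, 6.235 and 6.224 in Col-0. It was the farthest from Col-0, with differences of -0.126 and -0.174, and its difference of 0.0482 between the kinds did not pass (limma adjusted p = 0.186), with an SD of 0.0367 over the 3 AtSPP-overexpressed arrays against 0.0067 in Col-0. The probe set 246071_at had 6.738, 6.735 and 6.756 in AtSPP-overexpressed lines and 6.735, 6.726 and 6.721 in knockdown lines, against 6.824, 6.846 and 6.843 in Col-0, and the kinds overlapped (limma adjusted p = 0.369).

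The contrast between the transgenic kinds is the difference of the contrasts with Col-0 that the rule used, on the same transgenic arrays. The rule treats both kinds alike and bounds both below Col-0. Over all probe sets, limma called 6.94% lower and 6.56% higher in knockdown lines than in Col-0, against 0.246% and 0.299% in AtSPP-overexpressed lines. A set chosen for differing from Col-0 can show such an excess, and its part was not tested. Members also had a wide spread, so all probe sets are not a matched background. Nothing particular to the members is read from the shares below. The knockdown mean was lower than the AtSPP-overexpressed mean in 159 of 171 members (93.0%), against 59.3% of all probe sets. limma called 36 members (21.1%) higher in AtSPP-overexpressed than in knockdown lines and 0 lower, where 4.33% of all probe sets were called in either direction, 2.26% higher and 2.07% lower. At an unadjusted p under 0.05 there were 95 members higher and 0 lower, against 11.2% of all probe sets higher. Of the 36 called members 14 are paired with 1 gene and 22 are unlisted. All 3 AtSPP-overexpressed arrays lay above all 3 knockdown arrays in 99 members (57.9%, background 15.1%) and below them in 0 (background 10.3%). The median difference was 4.8e-04, from -8.5e-04 to 0.0482, against 4.9e-07 over all probe sets.

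The count of 36 fell when single arrays were left out. It was 13 without AtSPP-overexpressed replicate 1 and 17 without replicate 3. It was 12, 18 and 10 without knockdown replicates 1, 2 and 3, and 23 without Col-0 replicate 3. The share of all probe sets called higher fell too, from 2.26% to 0.875%, 1.13%, 0.844%, 0.857%, 0.739% and 1.62% in the same order. No member was called lower in any of these. Of the 14 named genes called, AT1G78020, AT2G23910, AT3G02910 and scpl35 stayed under 0.05 with each array left out in turn, and the other 10 did not. The split of calls over all probe sets moved with the scaling: of the 10.5% called after quantile normalization 8.63 points were higher in AtSPP-overexpressed lines, and of the 97.4% called after centring on array medians 96.1 points were.

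**Figure D2:**
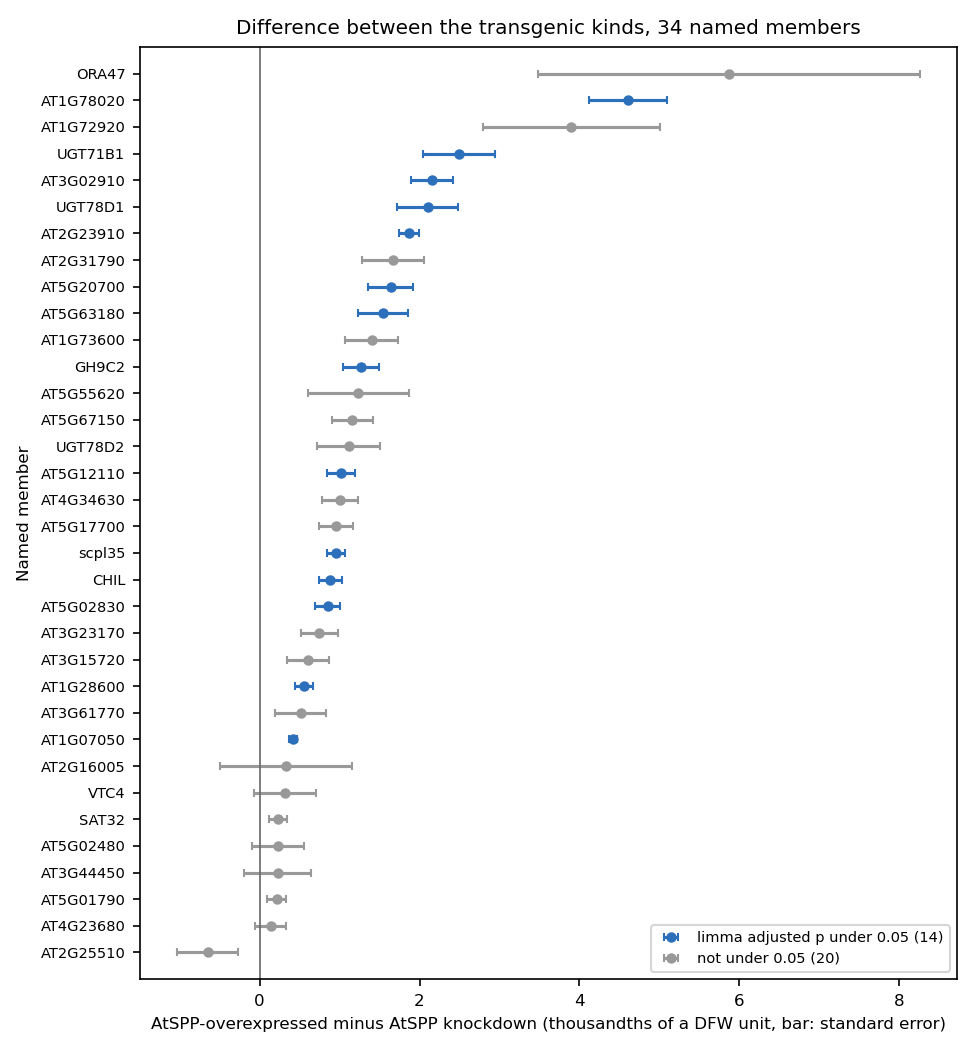
Difference between AtSPP-overexpressed and knockdown lines for the 34 named members, in thousandths of a DFW unit with the limma standard error. The difference is positive for all but AT2G25510, and 14 members (blue) have a limma adjusted p under 0.05. Members called in this contrast were named for that reason, so the share of 14 in 34 is not a result.

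The decrease in knockdown lines was 1.72 times that in AtSPP-overexpressed lines at the median, with quartiles of 1.30 and 2.12. A like order held on the opposite side: of 302 probe sets higher in both kinds than Col-0 under the same limits, 278 (92.1%) lay farther from Col-0 in knockdown lines, with a median ratio of 1.80, and 95 (31.5%) were called higher in knockdown than in AtSPP-overexpressed lines. The order was thus seen in both directions and cannot be called particular to the lower set.

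**Figure D3:**
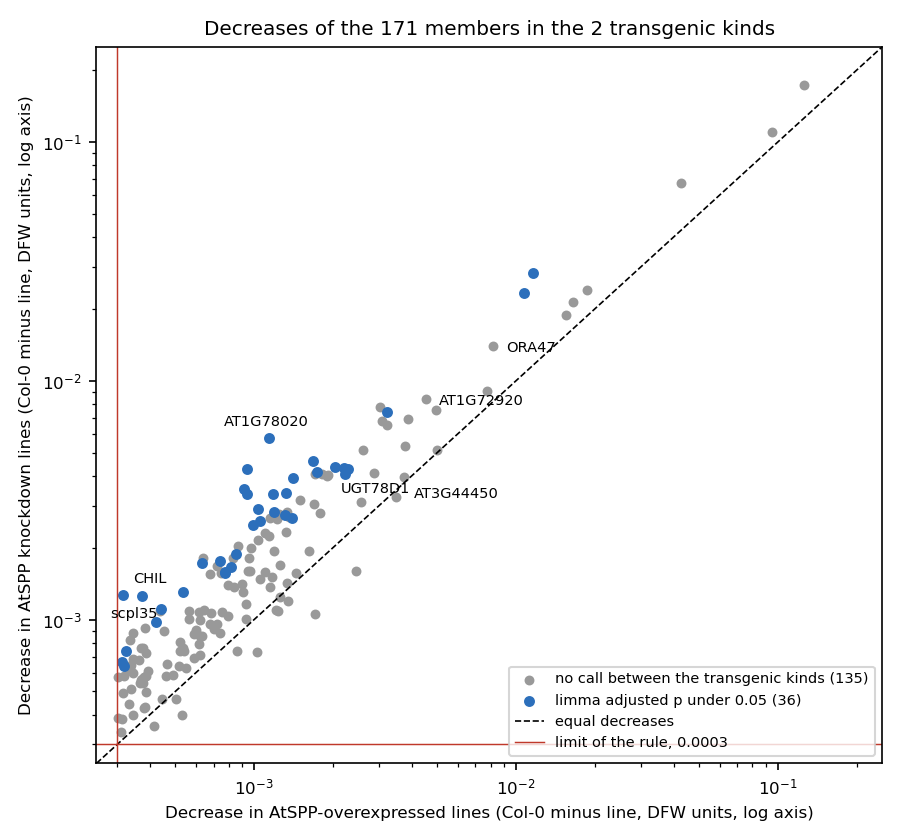
Decrease of each of the 171 members from Col-0 in AtSPP-overexpressed lines (horizontal, DFW units, log axis) and in knockdown lines (vertical, DFW units, log axis). Both axes use the same Col-0 arrays, red lines mark the limit of 0.0003, and 159 members lie above the line of equal decreases.

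To compare arrays over the set, each member was scaled so that the Col-0 mean was 0 and the mean of the 6 transgenic arrays was -1. The median positions were -0.597, -0.856 and -0.747 for the AtSPP-overexpressed arrays and -1.24, -1.22 and -1.36 for the knockdown arrays, against 0.0847, -0.00241 and -0.102 for Col-0. The 3 knockdown arrays were alike, whereas AtSPP-overexpressed replicate 1 lay nearest to Col-0. That array was the highest transgenic array in 90 members, knockdown replicate 3 was the lowest in 83, and Col-0 replicate 3 was the lowest Col-0 array in 82.

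**Figure D4:**
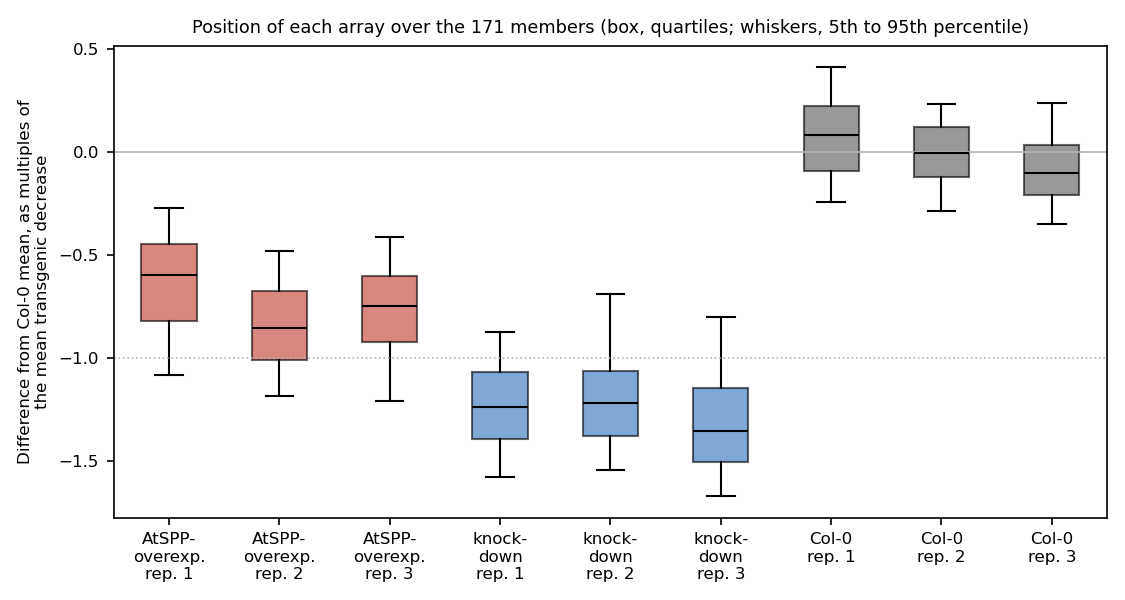
Position of each array over the 171 members, as the difference from the Col-0 mean in multiples of the mean transgenic decrease (box, quartiles with the median; whiskers, 5th to 95th percentile). The AtSPP-overexpressed arrays have medians between -0.856 and -0.597 and the knockdown arrays between -1.36 and -1.22.

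Members shared features that the rule did not name, although it bears on the first of them. Their spread within groups was wide for this array set, with a median residual SD of 2.8e-04 against 4.7e-06 over all probe sets, and no member was below the 86.5th percentile. The limit of 0.0003 is far above 4.7e-06 and so favours probe sets with a wide spread. Nothing is read from this feature. Of all probe sets 804 differed from Col-0 by at least 0.0003 in both transgenic kinds, in either direction. Their mean signal lay above the median of all probe sets in 144 of 171 members. After the group means were removed, pairs of members had a median correlation of 0.175 over the 9 arrays, and 62.5% of pairs were positive, against 0.0493 and 53.4% among the 3065 probe sets with a spread at least as wide as that of the narrowest member. These pairs share the same arrays and hence any array effect, whose part was not tested.

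The 58 members with a gene were spread over all 5 chromosomes. Chromosomes 1 and 5 held 18 each (31.0% each, against 25.5% and 22.3% of all probe sets paired with 1 gene), chromosome 3 held 13 (22.4% against 20.3%), chromosome 2 held 5 (8.62% against 16.3%) and chromosome 4 held 4 (6.90% against 14.5%). In the order of protein-coding genes 10 members (17.2%) had another member within 10 genes, against 4.37% of all measured loci. PPR596 and AT1G80280, an alpha/beta hydrolase gene, are direct neighbours. CHIL lies 2 genes from AT5G05250, AT3G15720 lies 4 from AT3G15760, AT5G20700 lies 4 from AT5G20740, an invertase and pectin methylesterase inhibitor gene, and VTC4 lies 6 from AT3G02910. The genes of such a pair did not always share the order of the groups: AT3G02910 was called higher in AtSPP-overexpressed than in knockdown lines, while for VTC4 the kinds overlapped.

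Most other lists had few measured genes and no members. On the list of the unfolded protein response and chaperones of the endoplasmic reticulum, 6 of 20 genes were measured. In 4 of these (66.7%) all 6 transgenic arrays lay below Col-0, against 4.65% of all probe sets, while none reached the limits of the rule. limma called 2 of the 6 (33.3%) lower in knockdown lines than in Col-0, against 6.94% of all probe sets, and none in AtSPP-overexpressed lines. These were the chaperone gene ATERDJ3B, with a difference of -8.5e-05 (limma adjusted p = 0.0162), and the transcription factor gene BZIP17, with -3.6e-06 (limma adjusted p = 0.0297). The calreticulin gene CRT1b differed from Col-0 by -2.2e-04 in AtSPP-overexpressed and by -1.5e-04 in knockdown lines and did not pass (limma adjusted p = 0.200 and 0.149). The transcription factor genes BZIP28 and BZIP60 overlapped Col-0 and did not pass. Their differences were -1.2e-06 and 8.2e-07 for BZIP28 and -1.5e-04 and -4.5e-05 for BZIP60. AT5G07340, 1 of the 4, differed from Col-0 by -7.1e-06 in AtSPP-overexpressed and by -9.7e-06 in knockdown lines and did not pass (limma adjusted p = 0.345 and 0.0639). Differences this small on the DFW scale cannot be read as an amount of RNA. The counts of 4 and 2 use contrasts with Col-0 that the rule also used, so nothing is read from them. On the list of heat shock and cytosolic chaperones 4 of 16 genes were measured, and 2 met the limits and are among the loci left out. On that of sulfur assimilation 4 of 17 were measured, with 1 such locus. The lists of photosynthesis (5 of 22 measured), auxin (3 of 16), cold and drought (5 of 15), clock (1 of 24), jasmonate and defence (1 of 15) and sugar response (1 of 10) held no member, and those of phosphate, nitrate, brassinosteroid and aquaporin genes had none measured here. Of the tissue markers only 2 of 4 root genes were measured. PYK10, a root beta-glucosidase, differed from Col-0 by -4.0e-07 and 1.1e-06, and EXPA7, an expansin of root hair cells, by -5.0e-06 and -2.6e-06 in AtSPP-overexpressed and knockdown lines. The markers of leaf, seed and flower were not measured by a probe set paired with 1 gene. Differences this small in 2 root genes cannot show whether tissue composition was alike, so it remained unchecked. Of the 5 photosynthesis genes, limma called LHCB4.2 higher in knockdown lines than in Col-0 (difference 0.00982, limma adjusted p = 0.00144). SBPASE was called lower there (-5.2e-05, limma adjusted p = 0.0421), and none was called in AtSPP-overexpressed lines.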

How the data were processed

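The authors hybridized RNA of 9 samples to Affymetrix ATH1 arrays and used DFW in R for normalization. A single log2 signal for each probe set on each array was deposited by the authors. The log base was taken as 2, and neither it nor the software version nor any background correction is stated in the sources at hand. Values were used as deposited, without the 64 AFFX control probe sets, and columns without a sample numbered 0. Groups follow the sample labels. At most 7 values were identical between any 2 arrays. Probe sets were named through the platform annotation, with symbols from the RefSeq table of TAIR 10.1, which was used for names and gene order only.

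AtSPP-overexpressed and knockdown lines were compared by the moderated test of limma (version 3.58.1, R 4.3.3; 9 arrays in 1 fit, 6 residual degrees of freedom), with two-sided p-values adjusted by Benjamini-Hochberg over 22746 probe sets and a threshold of 0.05. An exact permutation test of 3 arrays against 3 cannot go below p = 0.1 and was not used. The steps were tested on simulated data. Precision is limited by the number of arrays. Members and lists were chosen with earlier results of these data known. Genes named are AtSPP, members on a list, members called between the kinds (at most 15), the 30 members paired with 1 gene with the largest smaller difference from Col-0, and those next to the limit. Alternatives were other normalization, centring, filters, limits, priors, array weights, a replicate block and arrays left out. Promoter motifs, protein N termini and families by product name were not analysed here. The yeast assays were not used here.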

Additional observations from a re-analysis of the deposited data

Results flagged for a closer look

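For 14 named members the test of the difference between the transgenic kinds passed, so that their decreases from Col-0 differed between AtSPP-overexpressed and knockdown lines. They are all the called members among the 58 with a gene, and they were named because of this call. Of all probe sets 2.26% were called higher in AtSPP-overexpressed than in knockdown lines. The AtSPP-overexpressed minus knockdown difference in DFW units was 0.00210 for UGT78D1, 0.00250 for UGT71B1, 8.9e-04 for CHIL and 0.00126 for GH9C2. It was 0.00461 for AT1G78020 and 0.00164 for AT5G20700, the FLZ genes. For AT3G02910 it was 0.00216, for AT2G23910 0.00187, for AT5G63180 0.00154 and for AT5G12110 0.00102. For AT5G02830 it was 8.5e-04, for AT1G28600 5.6e-04, for AT1G07050 4.2e-04 and for scpl35 9.5e-04. With 1 array left out in turn, the limma adjusted p of AT2G23910 lay between 0.00322 and 0.0135, that of AT1G78020 between 0.00225 and 0.0352, that of scpl35 between 0.0165 and 0.0409 and that of AT3G02910 between 0.00867 and 0.0464. For UGT78D1 it lay between 0.0142 and 0.118, and for AT1G28600 between 0.0336 and 0.143.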

How the results depend on the processing

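The number of members was 171 as described, 1565 after quantile normalization (113 of them shared), 400 after centring on array medians (all 171 shared), 144 with brighter probe sets alone, 58 with probe sets paired with 1 gene, 305 with a limit of -0.0001 and 70 with a limit of -0.001. With 1 array left out it was between 171 and 228. The count of members called higher in AtSPP-overexpressed than in knockdown lines was 36, and 154 after centring on array medians, where 22155 of 22746 probe sets were called. It was 44 after quantile normalization (27 shared), 52 with brighter probe sets alone and 12 of 58 with probe sets paired with 1 gene. It was 18 with the 6 transgenic arrays alone and 20 with the replicate number as a block (19 shared). Of the probe sets tested, 8.63%, 6.39%, 1.48%, 0.897% and 1.36% were called higher in these settings. An intensity trend, robust eBayes and array weights gave 37, 36 and 42, and centring each array on its median deviation from the mean array, chosen after seeing the data, gave 36. With 1 array left out the count was between 10 and 32, and the share of all probe sets called higher was between 0.739% and 2.01%. No setting called a member lower. Centring on array medians moved all probe sets of an array by 1 amount, and the counts under it are not read as a result. The cause of the other changes was not tested. No pairing of the samples by replicate number was seen: the deviations of arrays with the same number correlated between -0.138 and 0.208, against -0.222 to 0.214 for other numbers. With 3 arrays per group these correlations cannot exclude a pairing. Of the 14 named genes called, 9 kept the call after quantile normalization, 8 with the replicate block and 4 with the transgenic arrays alone. The sign of the AtSPP-overexpressed minus knockdown difference turned for AT5G01790 (-1.0e-04) and AT4G23680 (-1.0e-04) after quantile normalization, for AT2G16005 without AtSPP-overexpressed replicate 3 (-1.5e-04) or knockdown replicate 3 (-5.3e-04), and for AT4G23680 without AtSPP-overexpressed replicate 3 (-2.3e-05), and none of these 3 genes was called. Leaving out other arrays gave at most 8.8e-04 for AT2G16005 and 3.1e-04 for AT4G23680. Hydrophobic N termini and promoter motifs were not run. No scanner file was used, so signal over background is unknown.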
